A study of Mus musculus with 6 samples.

Results

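Transcripts of glycolysis, lactate and the adjoining sugar pathways were compared between naive CD8 T cells that differed in the brightness of a T-cell receptor signalling reporter. The set comprised 39 genes named by function and matched by symbol. Of these, 38 were found among the 11162 genes of the expression table and 36 were tested, since Hk2 and Rpia had a mean below 1 RPKM. Aldoc was not analysed here. All cells came from the spleen of mice with the reporter transgene Tg(Nr4a1-EGFP)GY139Gsat, called Nur77-GFP, in which a fluorescent protein reports on the Nr4a1 gene. Cells had been sorted as CD8+ CD44lo CD62Lhi Qa2hi, and OT-I, the name of a transgenic T-cell receptor, stands among the sorting markers. GFP-hi denotes the 3 libraries from cells with bright reporter and GFP-lo the 3 from cells with dim reporter, so both groups have the same genotype. The labels do not say whether libraries came from separate or pooled mice, and give no age, so that p-values measure only the spread between these libraries, which may be technical.

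Glycolysis splits glucose into pyruvate in the cytosol, and lactate dehydrogenase turns pyruvate into lactate while renewing NAD+. Pyruvate that enters mitochondria is instead oxidised by the pyruvate dehydrogenase complex, which pyruvate dehydrogenase kinases switch off by phosphorylation. The pentose phosphate pathway branches from glucose 6-phosphate to make NADPH and ribose. Resting naive T cells are known for low glycolytic rates, which rise on activation through the T-cell receptor.

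Values are RPKM, reads scaled to gene length and library size, so that levels can be compared between genes. Recovered depths were 26170000 to 35940000 reads, so that 1 RPKM stood for 26.17 to 35.94 reads per kilobase of transcript, which bears on counting error only. The GFP transcript itself did not pass the test, at 214, 262 and 215 RPKM in GFP-hi against 216, 215 and 191 RPKM in GFP-lo, with overlapping groups (log2 difference 0.15, limma adjusted p = 0.42). Nr4a1 overlapped too, at 56.6, 90.9 and 37.0 RPKM against 63.1, 84.9 and 33.8 RPKM (limma adjusted p = 0.98). Its level thus ran in the same order of library number in both groups, but the labels do not tie any GFP-hi library to a GFP-lo library, and the numbers follow the order of the records. The 7 genes listed for CD8 T cells were abundant in every library, at a summed 1907 to 2017 RPKM in GFP-hi libraries, and 1876 to 1927 RPKM in the GFP-lo ones. Only Cd8a and Cd8b1 among them are particular to CD8 T cells, the rest being shared with other T cells. Cd8a had a mean of 99.1 against 94.1 RPKM and Cd8b1 808 against 816 RPKM, both with overlapping groups. Of other cell types, 3 of 7 B cell genes summed to 12.6 to 14.2 against 11.0 to 11.4 RPKM, almost all of it Cd79b. For CD4 T cells, 2 of 5 genes summed to 15.8 to 25.6 against 36.5 to 48.2 RPKM, most of it Cd40lg. These went opposite ways: Cd40lg had a mean of 17.8 against 39.7 RPKM, and Ctla4 2.54 against 1.42 RPKM with overlapping groups. Of 7 erythroid genes, 2 summed to 4.36 to 5.74 against 2.38 to 3.55 RPKM, most of it Car2. Car2 had a mean of 4.19 against 2.13 RPKM with groups apart, whereas the globin gene Hba-a1 overlapped, at 0.701 against 0.787 RPKM. Cd4, Cd79a and Lyz2 were not analysed here, and Ms4a1, a B cell marker, was at most 0.597 RPKM. GFP-hi replicate 2 and GFP-lo replicate 2 stood apart in heat-shock transcripts, with Hspa1b at 1904 and 2133 RPKM against at most 503 RPKM elsewhere. Proliferation transcripts rose with the reporter at 10 of 14 cell cycle genes tested, and the summed level of 18 was 187 to 210 RPKM in GFP-hi libraries, and 134 to 144 RPKM in the GFP-lo ones. The part of dividing cells, of other cell types and of the heat-shock transcripts in the differences below was not tested. In bulk RNA, fewer cells with a transcript and less of it per cell cannot be told apart.

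The comparison asked how cells sorted for brighter reporter fluorescence differ in their sugar metabolism transcripts. Of the 36 genes tested, 1 rose and 1 fell in GFP-hi cells, that is 5.56%, against 3.95% of all 9351 genes, or 2.46% higher and 1.49% lower (limma on log2(RPKM + 1), Benjamini-Hochberg adjusted p under 0.05 over all genes). Pdk1, a pyruvate dehydrogenase kinase, fell, and Pgm1, a phosphoglucomutase family member, rose. A share this near the background is no result about the set. The calls across the whole table split into 230 up and 139 down, or 203 up and 187 down with trimmed mean of M values scaling, which rescales libraries on genes that differ little.

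Small positive differences were common without passing the test. The log2 difference was above 0 for 31 of 36 genes and for 55.5% of all genes tested, and for 28 of 36 under trimmed mean of M values scaling and 28 with each library's trend with transcript length removed. Its median was 0.11 over the 36 genes and 0.02 over all genes. The groups did not overlap for 19 genes (52.8%), against 26.9% of all genes. GFP-hi lay above for 16 of them (44.4%, against 17.1%) and below for 3 (8.33%, against 9.84%), namely Pdk1, Aldoa and Galm. An unadjusted limma p under 0.05 was found for 13 genes (36.1%, against 20.2%). The 36 genes were also measured with less spread, at a median within-group SD of 0.056 on the log2 scale against 0.090 for all genes. They were more abundant too, with a median of 18.2 RPKM against 8.72 RPKM for all genes tested. Their transcripts were shorter, at a median of 1236 bases against 1705 bases. With that length trend removed, the median difference was 0.067 over the 36 genes and -0.0037 over all genes.

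**Figure D1:**
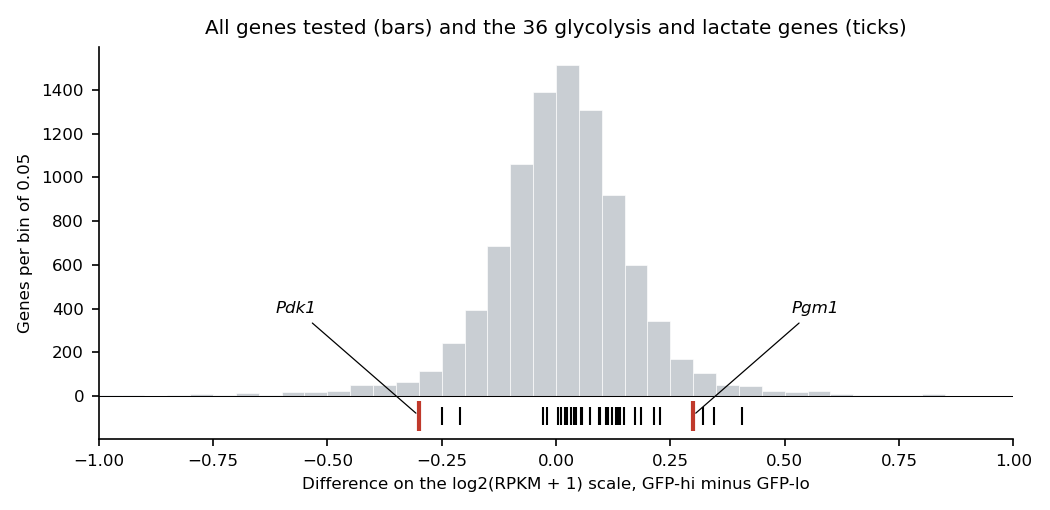
Log2 difference between GFP-hi and GFP-lo (x axis) for all genes tested, as the number of genes per bin of 0.05 (bars), and for the 36 glycolysis and lactate genes (ticks). The 2 genes that passed the test, Pdk1 and Pgm1, are marked in red, and 32 genes beyond 1 in either direction are not drawn.

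The summed level of the 38 genes was 1002, 1033 and 1009 RPKM in GFP-hi libraries, and 961, 958 and 960 RPKM in the GFP-lo ones. As a share of all listed RPKM this was 0.578% ± 0.00800 in GFP-hi and 0.550% ± 0.00898 in GFP-lo (SD, n = 3 each). Every GFP-hi library was above every GFP-lo library in this sum. Lower glycolysis held the largest share of it, where 6 genes summed to between 243 and 263 RPKM. Ldha was the most abundant gene, followed by Pkm and Eno1, and Hk2 was the least.

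**Figure D2:**
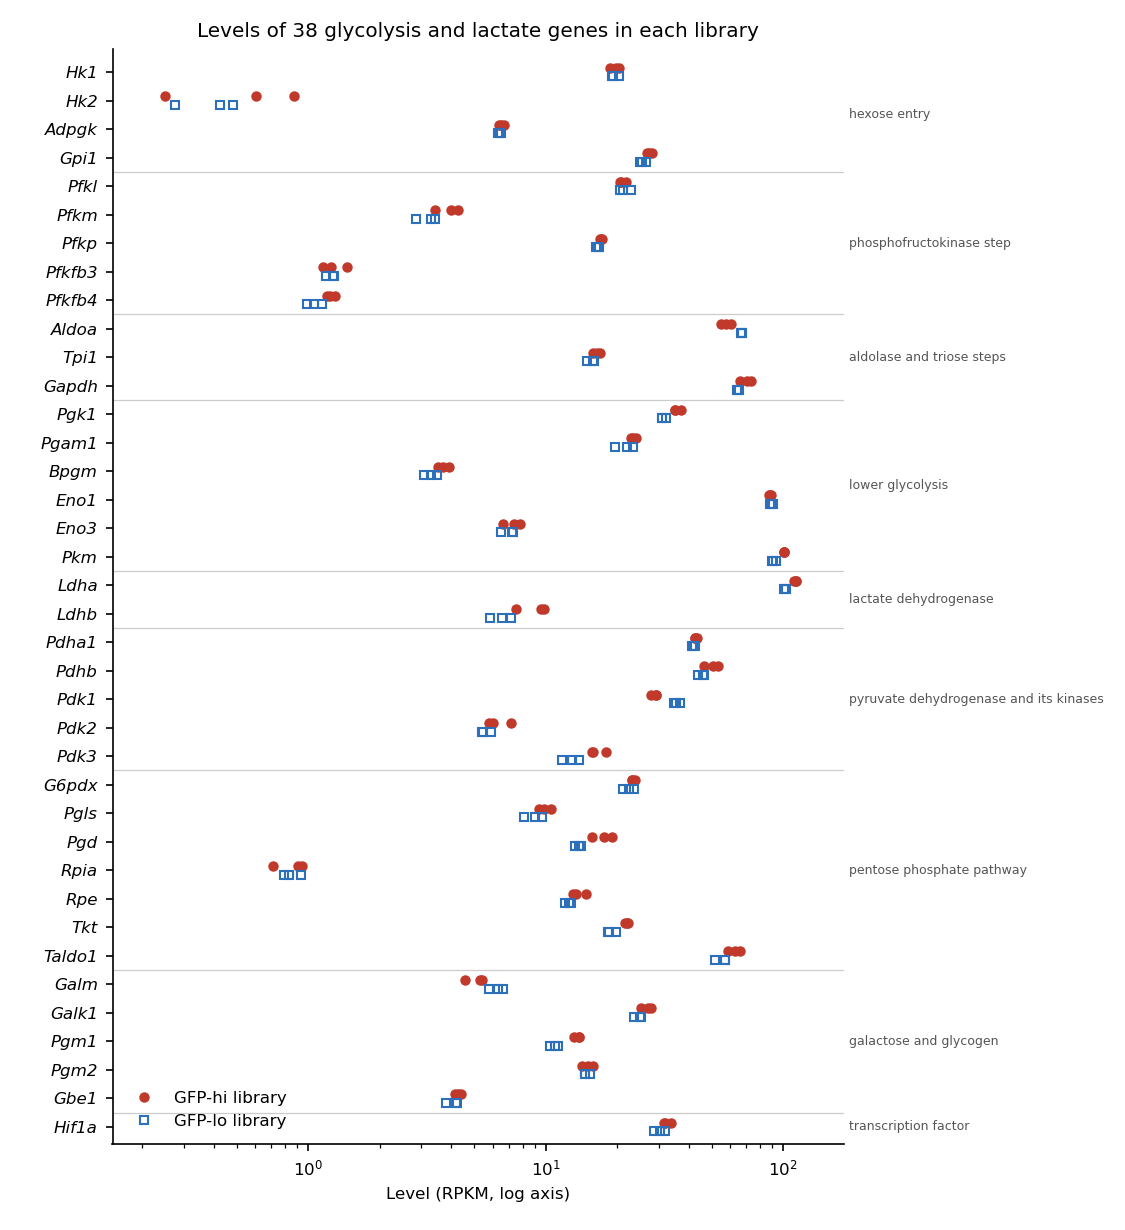
RPKM on a log axis (x) of the 38 genes (y), grouped by role, with 1 filled circle per GFP-hi library and 1 open square per GFP-lo library. Levels span from 0.249 RPKM for Hk2 to 113 RPKM for Ldha, and the groups lie close together at most genes.

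Of the hexose entry genes, 0 of 3 tested passed, also at an unadjusted limma p under 0.05. Hexokinases trap glucose by phosphorylation, and Hk1 was the main form, at 20.4, 18.6 and 19.8 RPKM in GFP-hi and 20.3, 19.1 and 19.2 RPKM in GFP-lo. Hk1 made up 97.2% ± 1.40 of the summed hexokinase RPKM in GFP-hi and 98.0% ± 0.518 in GFP-lo (SD, n = 3 each). Its log2 difference was 0.0050 with a 95% interval from -0.13 to 0.14 (limma, adjusted p = 0.97). Hk2, the form induced on T-cell activation, was low in both populations. It had 0.87, 0.249 and 0.602 RPKM in GFP-hi and 0.426, 0.275 and 0.482 RPKM in GFP-lo, so the groups overlapped. Gpi1, which isomerises glucose 6-phosphate, was 27.4 ± 0.659 against 25.6 ± 0.786 RPKM, with groups apart by less than 1 RPKM and a log2 difference of 0.09 ± 0.051 (SE, limma adjusted p = 0.36). Adpgk, a glucokinase that spends ADP, had 6.50 ± 0.145 against 6.40 ± 0.0856 RPKM.

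At the phosphofructokinase step, the committed step of glycolysis, none of 5 genes passed the test, and 1 had an unadjusted limma p under 0.05. The groups were apart with GFP-hi above for 3 of the 5, Pfkm, Pfkp and Pfkfb4 (17.1% of all genes). The liver and platelet forms Pfkl and Pfkp held most of the summed level, at 50.1% ± 1.24 and 40.6% ± 0.227 in GFP-hi (SD, n = 3 each). In GFP-lo their shares were 52.2% ± 1.61 and 40.1% ± 1.45, and the groups overlapped for both shares. As a level, Pfkp had 16.9, 17.1 and 17.2 RPKM in GFP-hi against 16.3, 16.6 and 16.7 RPKM in GFP-lo, a log2 difference of 0.04 (limma adjusted p = 0.68). Pfkl, the most abundant gene of the step, had a log2 difference of -0.03 ± 0.058 (SE, limma adjusted p = 0.84). The muscle form Pfkm had groups apart, at 3.99, 3.43 and 4.26 RPKM in GFP-hi and 3.29, 2.84 and 3.42 RPKM in GFP-lo. The lowest GFP-hi library was only just above the highest GFP-lo library, and the log2 difference was 0.23 ± 0.088 (SE, limma adjusted p = 0.21). Exons of Pfkm overlap those of Senp1, and the counting was not stated to use strand. Other genes of the set share exon bases with a neighbour too. They include Aldoa (Fam57b), Gapdh (Iffo1), Tpi1 (Spsb2), Pkm (Gm49759), Tkt (Mir3076), Rpe (Kansl1l) and Pgm2 (Itgb3bp). No such overlap was found for Pdk1, Pdk3 or Pgm1. The bifunctional enzymes Pfkfb3 and Pfkfb4 set the level of fructose 2,6-bisphosphate, the activator of phosphofructokinase. Both were low, at 1.29 ± 0.152 and 1.24 ± 0.0457 RPKM in GFP-hi and 1.25 ± 0.0535 and 1.06 ± 0.0748 RPKM in GFP-lo (SD, n = 3 each). Pfkfb3 overlapped between groups, and Pfkfb4 did not (log2 difference 0.12, limma adjusted p = 0.40).

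At the aldolase and triose steps 0 of 3 genes passed, with 1 at an unadjusted limma p under 0.05. Aldoa, which cleaves fructose 1,6-bisphosphate, had 55.0, 60.4 and 57.6 RPKM in GFP-hi and 66.2, 67.0 and 67.3 RPKM in GFP-lo. The groups did not overlap, and the GFP-lo libraries lay close to each other. The log2 difference was -0.21 ± 0.053 (SE, limma adjusted p = 0.074), which missed the threshold. Aldoa passed with trimmed mean of M values scaling (adjusted p = 0.035), with array quality weights (0.0084), without the length trend (0.012) and with replicate 2 of GFP-hi left out (0.048). Its difference stayed between -0.27 and -0.18 over all 15 alternatives, whose adjusted p ran from 0.0084 to 0.22. Gapdh, the next oxidising step, pointed the other way, at 65.9, 73.6 and 70.6 RPKM in GFP-hi against 64.1, 65.1 and 64.9 RPKM in GFP-lo. Its groups were less than 1 RPKM apart, with a log2 difference of 0.11 ± 0.056 (SE, limma adjusted p = 0.32). Tpi1, triose phosphate isomerase, overlapped between groups, with 16.4 ± 0.614 against 15.6 ± 0.577 RPKM. Aldoa, Gapdh and other abundant glycolytic genes have many processed copies in the genome, so their reads can be split or lost, and the authors' handling of such reads was not given in the sources used here.

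In lower glycolysis 3 of 6 genes had groups apart, each with GFP-hi above (17.1% of all genes were apart in that direction), although none of the 6 passed the test and 2 had an unadjusted limma p under 0.05. Pgk1, which makes the first ATP of the payoff phase, had 35.2, 37.2 and 35.2 RPKM in GFP-hi and 30.9, 32.3 and 31.0 RPKM in GFP-lo. Its log2 difference was 0.19 (SE 0.051, limma adjusted p = 0.093). Pkm, pyruvate kinase, had 101, 101 and 101 RPKM in GFP-hi and 90.7, 90.0 and 93.7 RPKM in GFP-lo (0.14, SE 0.048, limma adjusted p = 0.16). Bpgm, which makes 2,3-bisphosphoglycerate, was 3.72 ± 0.192 against 3.29 ± 0.214 RPKM (SD, n = 3 each). Eno1, the main enolase, overlapped between groups, at 88.1 ± 1.13 and 89.3 ± 1.45 RPKM, with an interval of its log2 difference from -0.13 to 0.09. Eno3, the muscle enolase, had 7.24 ± 0.605 and 7.01 ± 0.437 RPKM, and Pgam1, phosphoglycerate mutase, had 23.5 ± 0.603 and 21.7 ± 1.83 RPKM. Both overlapped between groups.

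Neither lactate dehydrogenase gene passed, with both at an unadjusted limma p under 0.05 (20.2% of all genes). Both had groups apart with GFP-hi above (17.1% of all genes). Ldha, the form that favours lactate production, had 111, 113 and 113 RPKM in GFP-hi libraries, and 103, 101 and 102 RPKM in the GFP-lo ones. The replicates were tight, and the log2 difference was 0.14 (SE 0.047, limma adjusted p = 0.16). Ldhb, the heart form that favours pyruvate, had 9.59, 9.83 and 7.49 RPKM in GFP-hi and 6.55, 7.15 and 5.81 RPKM in GFP-lo. It showed the largest log2 difference of the 36 genes, 0.41 ± 0.11 (SE, limma adjusted p = 0.084). Ldhb passed only without GFP-hi replicate 3 among the 15 alternatives (adjusted p = 0.037), and its adjusted p otherwise ran up to 0.24. The ratio of Ldha to Ldhb was 12.7 ± 2.05 in GFP-hi and 15.8 ± 1.74 in GFP-lo (SD, n = 3 each), and the groups overlapped.

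**Figure D3:**
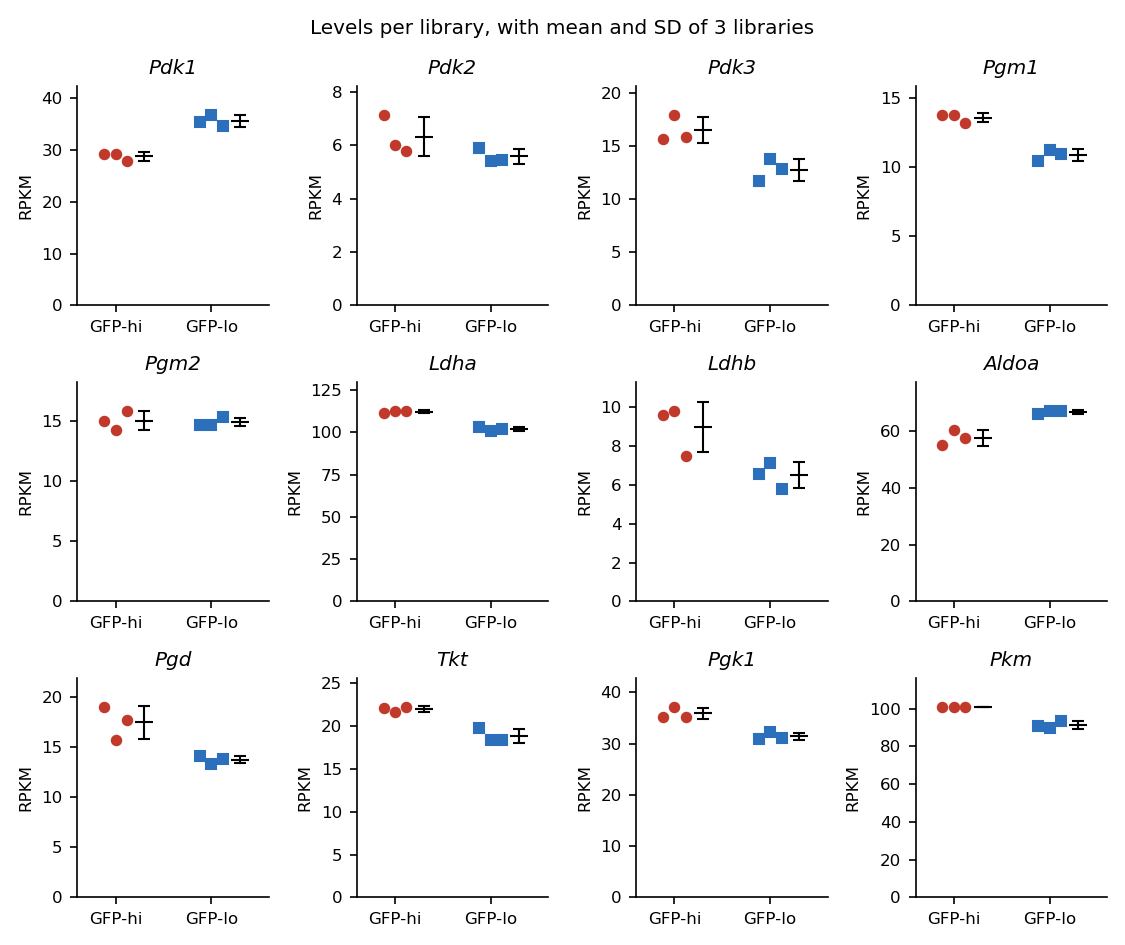
RPKM (y axis, from 0) of 12 genes in each library (red circles GFP-hi, blue squares GFP-lo), with the mean and SD of 3 libraries as black bars. Pdk1 and Aldoa are lower in every GFP-hi library, Pgm2 and Pdk2 overlap between the groups, and the remaining panels show GFP-hi above GFP-lo.

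Of the pyruvate dehydrogenase kinases, Pdk1 fell, while Pdk3 had more in every GFP-hi library without passing the test. Pdk1 (Entrez 228026, chr2:71873215-71903858 in GRCm38, the build also called mm10) had 29.2, 29.2 and 27.8 RPKM in GFP-hi and 35.4, 36.8 and 34.6 RPKM in GFP-lo. Every GFP-hi library was below every GFP-lo library. Group means were 28.7 ± 0.824 against 35.6 ± 1.11 RPKM (SD over 3 libraries each), a ratio of 0.807. The log2 difference was -0.30 ± 0.052 (SE, limma adjusted p = 0.020). Pdk1 encodes a kinase whose activity keeps pyruvate out of the mitochondrial complex, and it is a known target of the hypoxia-inducible factor HIF-1.

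Pdk3 (Entrez 236900, chrX:93764616-93832150) had 15.6, 17.9 and 15.9 RPKM in GFP-hi and 11.7, 13.8 and 12.9 RPKM in GFP-lo. Here every GFP-hi library was above every GFP-lo library, by a ratio of means of 1.29. The log2 difference of 0.35 ± 0.078 (SE) narrowly missed the threshold (limma adjusted p = 0.052). Its adjusted p ran from 0.015 with array quality weights, the only alternative under which it passed, to 0.14. Pdk2 overlapped between groups, with 6.32 ± 0.728 against 5.58 ± 0.268 RPKM (SD, n = 3 each).

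As a share of the 3 kinase transcripts, a measure that library scaling cannot change, Pdk1 held 56.2%, 54.9% and 56.2% in GFP-hi and 66.8%, 65.7% and 65.4% in GFP-lo. Pdk3 held 30.1%, 33.7% and 32.1% in GFP-hi and 22.1%, 24.6% and 24.3% in GFP-lo. The share of Pdk2 was also higher in every GFP-hi library, at 13.7%, 11.3% and 11.7% against 11.1%, 9.67% and 10.3%. Shares add up to the whole, so a lower share of Pdk1 by itself raises the other shares. They can also carry the trend with transcript length, with mean lengths of 1799 bases for Pdk1 and 1038 bases for Pdk3. With that trend removed, the log2 difference was -0.32 for Pdk1 and 0.28 for Pdk3. The ratio of Pdk1 to Pdk3 was 1.75 ± 0.121 in GFP-hi and 2.80 ± 0.198 in GFP-lo (SD, n = 3 each), with no overlap. Pdk1 remained the most abundant of the kinase transcripts in all 6 libraries. Of the subunits of the enzyme itself, Pdha1, which the kinases phosphorylate, had 42.9 ± 0.406 and 41.9 ± 0.778 RPKM, and its groups overlapped. Its partner Pdhb had 50.0 ± 3.49 and 45.3 ± 1.37 RPKM (SD, n = 3 each), again with overlap, and a log2 difference of 0.14 ± 0.064 (SE, limma adjusted p = 0.28).

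**Figure D4:**
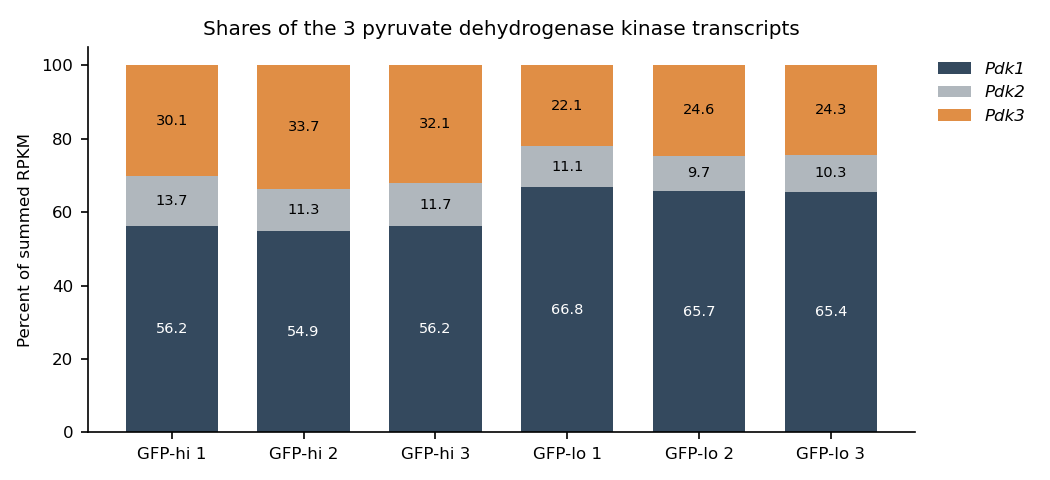
Percent of the summed RPKM of Pdk1, Pdk2 and Pdk3 (y axis) taken by each gene in the 6 libraries (bars). Pdk1 takes 54.9% to 56.2% in GFP-hi and 65.4% to 66.8% in GFP-lo, and Pdk3 takes 30.1% to 33.7% and 22.1% to 24.6%. Pdk2 takes 11.3% to 13.7% and 9.67% to 11.1%.

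Promoter windows are shown for the genes that passed the test, for Pdk3 as the kinase that ran opposite to Pdk1, and for Ldha as the most abundant gene. Each holds the 250 bases before the first listed transcript start in RefSeq on GRCm38.p6, read on the gene's strand, 5′ to 3′. Capitals mark ACGTG or GCGTG, the core letters that HIF-1 recognises, on either strand. A palindromic CACGTG, the E-box letters, counts on both strands.
Pdk1 (chr2:71872974-71873223, + strand): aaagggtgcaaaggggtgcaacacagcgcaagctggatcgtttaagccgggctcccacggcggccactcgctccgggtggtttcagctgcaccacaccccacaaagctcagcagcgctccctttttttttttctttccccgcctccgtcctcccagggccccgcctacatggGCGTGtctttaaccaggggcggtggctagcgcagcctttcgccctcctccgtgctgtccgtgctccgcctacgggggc
Pdk3 (chrX:93832151-93832400, - strand): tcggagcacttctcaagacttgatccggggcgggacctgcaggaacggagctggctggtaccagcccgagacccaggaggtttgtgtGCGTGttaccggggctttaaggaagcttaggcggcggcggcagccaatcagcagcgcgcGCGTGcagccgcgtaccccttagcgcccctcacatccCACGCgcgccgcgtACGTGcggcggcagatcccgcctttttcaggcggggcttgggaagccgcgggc
Pgm1 (chr5:64092689-64092938, + strand): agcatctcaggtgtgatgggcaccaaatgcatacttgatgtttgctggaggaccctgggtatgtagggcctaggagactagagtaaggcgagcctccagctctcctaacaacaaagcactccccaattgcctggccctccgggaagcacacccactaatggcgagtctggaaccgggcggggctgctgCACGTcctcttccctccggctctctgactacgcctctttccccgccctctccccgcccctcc
Ldha (chr7:46845554-46845803, + strand): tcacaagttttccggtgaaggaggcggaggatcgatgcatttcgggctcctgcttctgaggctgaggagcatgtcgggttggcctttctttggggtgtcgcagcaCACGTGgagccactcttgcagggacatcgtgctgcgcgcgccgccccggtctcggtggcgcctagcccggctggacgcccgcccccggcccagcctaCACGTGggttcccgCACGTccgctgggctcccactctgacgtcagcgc
The Pdk1 window held 1 match, that of Pdk3 held 4, that of Pgm1 held 1 and that of Ldha held 5. Of 37 genes of the set with an entry, 32 (86.5%) had a match before at least 1 listed start, against 41.5% of 27025 genes in the RefSeq table and 63.7% of the 7616 tested genes with an entry. Counted over windows, 39 of the set's 51 held a match, against 38.6% of all 32851, which include windows of genes not tested here. The share over windows of tested genes alone was not computed. A match describes letters only, since no binding was measured.

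Of the pentose phosphate genes 4 of 6 tested had groups apart, each with GFP-hi above (17.1% of all genes), although none passed, with 3 at an unadjusted limma p under 0.05. Pgd, the NADPH-making 6-phosphogluconate dehydrogenase, had 19.0, 15.7 and 17.6 RPKM in GFP-hi and 14.1, 13.3 and 13.8 RPKM in GFP-lo. The groups did not overlap, and the log2 difference was 0.32 (SE 0.073, limma adjusted p = 0.054). Without GFP-hi replicate 2, the GFP-hi library with the least of it, Pgd passed (adjusted p = 0.017), as it did with array quality weights (0.0032). Its adjusted p ran up to 0.18 in the other alternatives. Tkt, the transketolase that links the branch back to glycolysis, had 22.1, 21.6 and 22.3 RPKM in GFP-hi and 19.8, 18.4 and 18.3 RPKM in GFP-lo (0.21, SE 0.053, limma adjusted p = 0.071).

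Taldo1, transaldolase, was the most abundant gene of this branch, with 58.7, 65.6 and 62.6 RPKM against 51.8, 56.9 and 57.0 RPKM, with groups apart and a log2 difference of 0.17 ± 0.064 (SE, limma adjusted p = 0.19). Rpe, the ribulose phosphate epimerase, was also apart, at 13.8 ± 0.950 against 12.5 ± 0.335 RPKM (SD, n = 3 each). G6pdx, the entry enzyme of the pathway, overlapped, with 23.3 ± 0.388 and 22.4 ± 1.09 RPKM. So did Pgls, the lactonase, with 9.92 ± 0.603 and 8.93 ± 0.782 RPKM, and Rpia, the ribose phosphate isomerase, with 0.855 ± 0.124 and 0.849 ± 0.0736 RPKM. Summed over its 7 genes, the branch had 146 to 152 RPKM in GFP-hi libraries, and 131 to 134 RPKM in the GFP-lo ones.

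Among galactose and glycogen genes, Pgm1 rose in GFP-hi cells. The gene listed under that symbol (Entrez 66681, chr5:64092919-64128355) is named Pgm2 in RefSeq, and the one listed as Pgm2 (Entrez 72157, chromosome 4) is named Pgm1 there. Pgm1 as listed belongs to the family branch known for acting on pentose phosphates, whereas Pgm2 as listed is the main glucose phosphoglucomutase. Pgm1 had 13.8, 13.8 and 13.2 RPKM in GFP-hi and 10.4, 11.3 and 10.9 RPKM in GFP-lo. Every GFP-hi library was above every GFP-lo library. Group means were 13.6 ± 0.347 against 10.9 ± 0.420 RPKM (SD over 3 libraries each), a ratio of 1.25, and the log2 difference was 0.30 (SE 0.055, limma adjusted p = 0.025).

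Its relative Pgm2 overlapped between groups, with 15.0, 14.3 and 15.9 RPKM against 14.7, 14.7 and 15.3 RPKM. The log2 difference of Pgm2 was 0.012 with an interval from -0.12 to 0.14. Pgm1 thus held 47.5% ± 1.92 of the summed level of the pair in GFP-hi and 42.2% ± 1.05 in GFP-lo (SD, n = 3 each), with groups apart. Galm, the aldose mutarotase, was lower in each GFP-hi library, at 4.59, 5.41 and 5.31 RPKM against 6.61, 5.79 and 6.33 RPKM. Its log2 difference of -0.25 did not pass (SE 0.077, limma adjusted p = 0.12). Galk1, galactokinase, the most abundant of these genes, had 26.6 ± 1.41 and 24.6 ± 0.883 RPKM and a log2 difference of 0.11 ± 0.059 (SE, limma adjusted p = 0.35). Gbe1, the glycogen branching enzyme, had 4.27 ± 0.112 and 4.07 ± 0.223 RPKM (SD, n = 3 each). Both overlapped between groups.

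**Figure D5:**
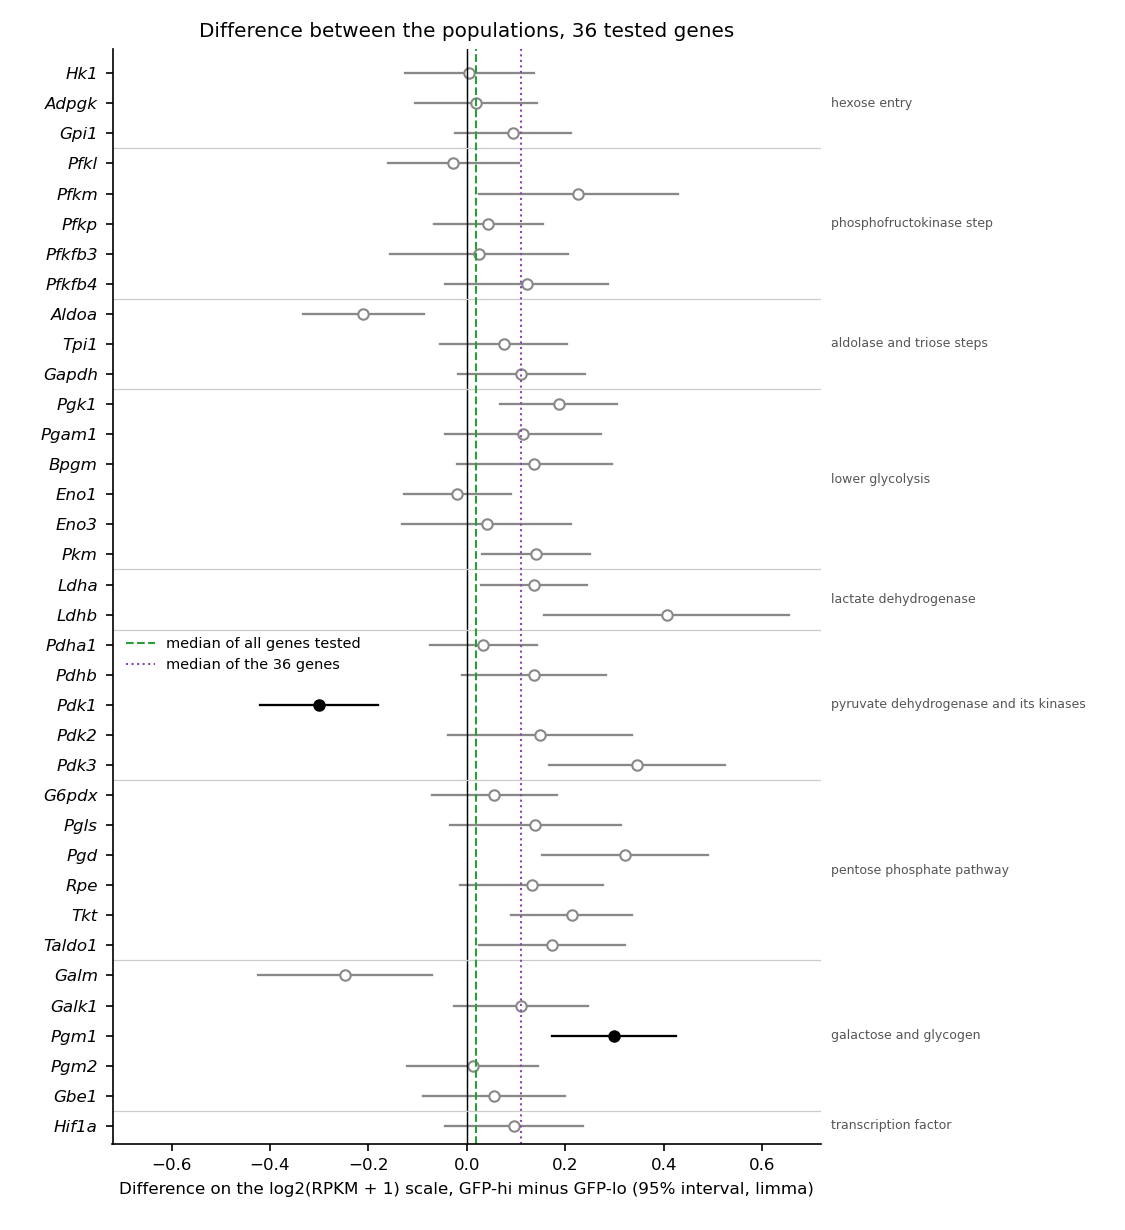
Log2 difference, GFP-hi minus GFP-lo, with its 95% interval (x axis) for the 36 tested genes grouped by role (y axis). Filled black points passed the test (Pdk1 and Pgm1), open grey points did not, and the dashed and dotted lines give the medians of all genes (0.02) and of the 36 genes (0.11).

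Neither call held when most single libraries were left out. Among these omissions Pdk1 kept an adjusted p under 0.05 only without GFP-hi replicate 2 (0.028). Its adjusted p was 0.070 without GFP-hi replicate 1, 0.10 without GFP-hi replicate 3, and 0.051, 0.096 and 0.071 without GFP-lo replicates 1, 2 and 3 (limma). Pgm1 behaved alike, at 0.046 without GFP-hi replicate 2 and 0.099, 0.074, 0.062, 0.072 and 0.094 without GFP-hi replicates 1 and 3 and GFP-lo replicates 1, 2 and 3. Both were at 0.099 in the 4 libraries low in heat-shock transcripts. The log2 difference kept its sign throughout and ran from -0.33 to -0.28 for Pdk1 and from 0.24 to 0.32 for Pgm1. With the length trend removed, Pgm1 had an adjusted p of 0.051.

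Hif1a, the oxygen-regulated subunit of HIF-1 and an activator of many of these genes, had 33.9, 31.7 and 31.5 RPKM in GFP-hi and 31.9, 30.4 and 28.5 RPKM in GFP-lo. The groups overlapped, and the log2 difference was 0.10 with an interval from -0.04 to 0.24 (limma, adjusted p = 0.43). Of 15 further genes of the HIF pathway and Myc tested, none passed, and 3 had an unadjusted limma p under 0.05 (20.2% of all genes). Egln3, a prolyl hydroxylase induced by HIF, had 2.52 ± 0.162 against 1.96 ± 0.223 RPKM (SD over 3 libraries each, limma adjusted p = 0.14). Egln1, another prolyl hydroxylase, varied widely, from 3.58 to 7.44 RPKM in GFP-hi and from 4.35 to 7.59 RPKM in GFP-lo. Epas1, which encodes HIF-2 alpha and was singled out after its values were seen, had a mean below 1 RPKM and so no test. It had 0.258, 0.181 and 0.401 RPKM in GFP-hi and 0.68, 0.981 and 0.921 RPKM in GFP-lo, with every GFP-hi library below, and it was called lower when no filter on low values was used.

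Other genes of sugar metabolism were read from 8 lists, of which 84 genes were tested. Of these 4 rose and none fell, that is 4.76% against 3.95% of all genes. At an unadjusted limma p under 0.05 there were 22 (26.2%, against 20.2% of all genes). In the list of glycogen, galactose and hexosamine genes 2 of 17 passed. Pygm, the muscle glycogen phosphorylase, had 3.63, 3.41 and 3.54 RPKM in GFP-hi and 2.04, 2.50 and 2.57 RPKM in GFP-lo, a log2 difference of 0.43 (SE 0.080, limma adjusted p = 0.026). Sord, sorbitol dehydrogenase, had 1.87, 1.64 and 1.70 against 0.994, 0.509 and 0.975 RPKM (0.59, SE 0.12, limma adjusted p = 0.032). The serine branch leaves glycolysis at 3-phosphoglycerate, and 2 of 11 genes in its list, which holds redox shuttles too, passed. Its genes Psat1 and Shmt1 rose by 0.30 and 0.34 on the log2 scale (limma, adjusted p = 0.044 and 0.037), with Psat1 at 5.70 ± 0.284 against 4.45 ± 0.210 RPKM and Shmt1 at 5.68 ± 0.341 against 4.29 ± 0.272 RPKM (SD, n = 3 each). All 4 had groups apart. None of the 4 was called when replicate 1 or 3 of GFP-hi, or replicate 2 or 3 of GFP-lo, was left out. Pygm alone was called when replicate 1 of GFP-lo was left out, and Pygm and Shmt1 when replicate 2 of GFP-hi was.

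None of 9 glucose and monocarboxylate transporter genes and their regulators passed, with 3 at an unadjusted limma p under 0.05 (20.2% of all genes). The log2 difference was above 0 for 6 of the 9 (55.5% of all genes). Slc2a1, the glucose transporter GLUT1, had 10.5 ± 0.544 against 12.1 ± 1.21 RPKM, and Slc2a8, an intracellular hexose transporter, had a log2 difference of -0.20 (limma adjusted p = 0.33). Txnip, which restrains glucose uptake and was singled out after its values were seen, was lower in each GFP-hi library, at 90.7, 91.9 and 93.8 RPKM against 105, 101 and 107 RPKM (limma adjusted p = 0.094). Mpc2, a mitochondrial pyruvate carrier subunit, was apart the other way, at 6.79 ± 0.567 against 5.87 ± 0.217 RPKM (SD, n = 3 each). Its log2 difference was 0.18 (limma adjusted p = 0.21), and that of Txnip was -0.18. None of 16 tricarboxylic acid cycle genes passed, with 5 at an unadjusted limma p under 0.05 (20.2% of all genes). Sdhb, a succinate dehydrogenase subunit, and Fh1, fumarase, had the largest log2 differences, 0.22 and 0.18 (limma adjusted p = 0.10 and 0.20). The summed level of the 16 was 646 to 676 RPKM in GFP-hi libraries, and 602 to 622 RPKM in the GFP-lo ones. Of 7 other genes of the pyruvate dehydrogenase complex and its phosphatases none passed, with 1 at an unadjusted limma p under 0.05. Of 5 other pentose phosphate genes none passed, with 0 at an unadjusted limma p under 0.05, and of 5 other isoenzymes tested none passed, with 1 at an unadjusted limma p under 0.05. Tigar, a fructose bisphosphatase that diverts sugar to the pentose pathway, was lower in each GFP-hi library, at 1.91 ± 0.0940 against 2.44 ± 0.420 RPKM (SD over 3 libraries each, limma adjusted p = 0.22).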

How the data were processed

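RNA of 6 libraries was made into cDNA with SMART-seq v4 and sequenced after Nextera XT preparation, per the labels' protocols. RPKM values were deposited by the authors, per the file headers, 1 column per sample. STAR and the build mm10 are named in the submitters' processing notes, whereas the read counter, annotation and listing rule were not given in the sources used here. Each column carries the title of 1 sample, and groups were taken from the reporter label. Symbols of 15 genes that were missing or turned into dates were looked up by Entrez ID in RefSeq (GRCm38.p6).

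Genes with a mean of at least 1 RPKM over the 6 samples (9351) were tested with limma 3.58.1 in R 4.3.3 on log2(RPKM + 1). The linear model had the reporter group alone, variances were moderated by eBayes (trend = TRUE), and tests were two-sided with Benjamini-Hochberg adjustment over all genes tested. Log2 differences are GFP-hi minus GFP-lo on that scale, which understates the change of low genes, and intervals are limma's 95% intervals, not adjusted for many genes. No pairing was used: the labels carry no replicate numbers, and those used here only name the samples in record order. The depth was recovered as the library size at which RPKM times length came nearest to whole reads for GENCODE M21 genes with 1 transcript. Between 92.7% and 95.3% of those products fell no more than 0.1 from a whole number. Transcript length was the mean over a gene's GENCODE M21 transcripts.

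In 5 simulations of the comparison over 9351 genes, a log2 change of 1 was given to 200 genes. On average 95.4% were recovered, 5.05% of calls were false, and 0 genes were called when none was changed. Differences of the size seen here are smaller than those simulated. The simulated noise was drawn independently for each gene and library. Spread that many genes share, such as that of the heat-shock transcripts, was not simulated, so the rate of false calls under it is not known. Libraries of a group correlated at 0.988 to 0.996 across genes (Pearson, genes are not replicates), and were kept as separate samples. Pairs from different groups correlated at 0.980 to 0.991, so the 2 ranges overlapped.

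The members, gene lists and alternatives were chosen with earlier results of these data known. All members are named, and of the other lists the genes that passed and at most 2 more per list. Txnip, Mpc2 and Epas1 were named beyond that rule, and marker genes only where they bear on the libraries. Members with the test passed and the most abundant of each role have full statistics. The other genes were read from lists of isoenzymes, transporters, pyruvate dehydrogenase parts, glycogen and hexosamine, pentose, serine and shuttle, tricarboxylic acid cycle and HIF genes. Trimmed mean of M values factors were computed on RPKM. Plots used matplotlib 3.10.9 (Python 3.11.15).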

Additional observations from a re-analysis of the deposited data

How the results depend on the processing

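Alternatives changed the pseudocount (0.1), the filter (none, or a mean of at least 5 RPKM), the scaling (median centring or trimmed mean of M values), the variance model (no trend, array quality weights) and the samples. Removal of the trend with transcript length was chosen after seeing the data. No paired fit was made because no label ties a GFP-hi library to a GFP-lo library: the replicate numbers were given here in record order. Except where a gene fell below a filter, the cause of the changes below was not tested. Of all 9351 genes tested 369 differed, and 202 did with a mean of at least 5 RPKM (6412 genes tested). Of the 9351, 1282 differed with array quality weights, 101 in the 4 libraries without both numbered 2, and 133 to 315 when 1 library was left out. Of the 36 glycolysis and lactate genes tested 2 differed, and 10 of 36 did with array quality weights, beside 1282 of 9351 genes. In those 4 libraries 0 of 36 did, and 10 had an unadjusted limma p under 0.05, beside 1447 of 9351 genes. When 1 library was left out 0 to 4 of 36 did, beside 133 to 315 of 9351. Their median difference was 0.11, against 0.018 over all genes. After trimmed mean of M values scaling it was 0.083, against -0.0063 over all genes. In the 4 libraries it was 0.076 against 0.011, and with the length trend removed 0.067 against -0.0037. When 1 library was left out, the median of the glycolysis and lactate genes was 0.0857 to 0.115. Of the other sugar metabolism genes 4 of 84 tested differed, and 5 did with no filter (Epas1 added, lower). At a mean of at least 5 RPKM 0 of 61 tested differed (17 at an unadjusted limma p under 0.05). There Pygm, Sord and Shmt1 were below the filter and had no test, and Psat1 was tested but not called. The count was 2 of 84 after trimmed mean of M values scaling and 12 of 84 with array quality weights, beside 1282 of 9351 genes. It was 0 in the 4 libraries (21 unadjusted) and 0 to 2 when 1 library was left out.

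Of 36 genes tested, 29 kept their sign in all of the 15 alternatives that tested them, and the rest, each within 0.05 of 0 as reported, turned. Trimmed mean of M values scaling put Hk1 at -0.022, Adpgk at -0.0053 and Pgm2 at -0.015. With the length trend removed Hk1 was at -0.038, Eno3 at -0.031 and Pdha1 at -0.017. When 1 library was left out, values ran from -0.022 to 0.040 for Hk1, -0.029 to 0.064 for Pfkfb3, -0.025 to 0.048 for Pgm2, -0.0065 to 0.099 for Eno3 and -0.057 to 0.012 for Pfkl. Hk1 was also at -0.0037 (replicate 3 of GFP-hi left out), -0.011 and -0.0057 (replicates 2 and 3 of GFP-lo). Eno3 was at -0.0060 without GFP-lo replicate 1. Hk2 and Rpia were below the filter and have no test. Each group with 1 library left out holds 2.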
